A study of Mus musculus with 2 samples.

Results

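Lymphatic endothelial cells were the 84 cells, of 24649 that passed the filter, chosen by their UMIs of the lymphatic genes Prox1 and Mmrn1 and of the endothelial adhesion molecule Pecam1, and by the absence of a leukocyte gene. Lymphatic endothelium lines the vessels that carry fluid and migrating leukocytes away from the skin. Prox1 is the transcription factor that sets and maintains its identity, and it differs from blood endothelium in bearing the hyaluronan receptor Lyve1 and the VEGF-C receptor Flt4 and in secreting the chemokine Ccl21a, which draws Ccr7-bearing dendritic cells and T cells into the vessel. Mmrn1 encodes multimerin 1, a secreted matrix protein.

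The cells came from the dorsal skin of wild-type male C57BL/6J mice aged 6 to 8 weeks, healed from a circular wound of 1.8 cm diameter. Wounds of the WT_LW group were given PBS and those of the TLR9agonist_LW group ODN2395, an oligonucleotide agonist of the Toll-like receptor TLR9, on days 0, 3 and 6. PBS is the control that the sample labels give, whereas a legend of the study names a control oligonucleotide for WT_LW, so that which of them was used is uncertain. Wound tissue was taken 2 days after the scab had detached, cells of epidermis and dermis were dissociated and combined, and 1 droplet single-cell RNA library was made per group. Each library held the cells of several mice, so that mouse, library and treatment cannot be told apart and no test between the groups could be made.

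The filter kept cells with at least 500 UMIs (unique molecular identifiers, 1 for each captured RNA molecule), at least 300 genes and at most 15% mitochondrial UMIs. A lymphatic cell held at least 2 UMIs of Prox1 and Mmrn1 together, at least 1 of Pecam1, none of the leukocyte gene Ptprc and fewer than 5 of the pericyte gene Rgs5. The rule found 44 such cells of 11443 in WT_LW and 40 of 13206 in TLR9agonist_LW. They ranged from 1181 to 29525 UMIs in WT_LW (median 5522) and from 1768 to 34985 in TLR9agonist_LW (median 9265), and they held 349018 and 488823 UMIs in all. Blood endothelial cells, taken for comparison, met the same conditions on Pecam1, Ptprc and Rgs5, held at least 2 UMIs of Pecam1 and the cadherin Cdh5 together and none of Prox1 or Mmrn1. They numbered 622 and 484, with medians of 6093.5 and 8341 UMIs. Of the filtered cell barcodes 39 occurred in both libraries, and 1 of these was that of a lymphatic cell of TLR9agonist_LW.

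Nearly all of the cells held several lymphatic markers that the rule did not use. Lyve1 was detected in 41 of 44 cells of WT_LW and in 38 of 40 of TLR9agonist_LW, against 6 of 622 and 9 of 484 blood endothelial cells. Of 9 further markers (Lyve1, Flt4, Pdpn, Ccl21a, Reln, Fgl2, Nrp2, Sema3d and Maf) the median lymphatic cell held 7.5 in WT_LW and 8 in TLR9agonist_LW, and the median blood endothelial cell 1 in each. At least 3 of them were found in 41 of 44 and 39 of 40 lymphatic cells, and in 54 of 622 and 59 of 484 blood endothelial cells. The least often detected of the 9 was Sema3d, in 18 of 44 and 22 of 40 lymphatic cells. The few cells without Lyve1 lay mostly at the edge of the rule. Of the 3 in WT_LW, the rule genes had 2, 2 and 13 UMIs, and the 2 in TLR9agonist_LW had 2 UMIs each and none of Ccl21a.

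**Figure D1:**
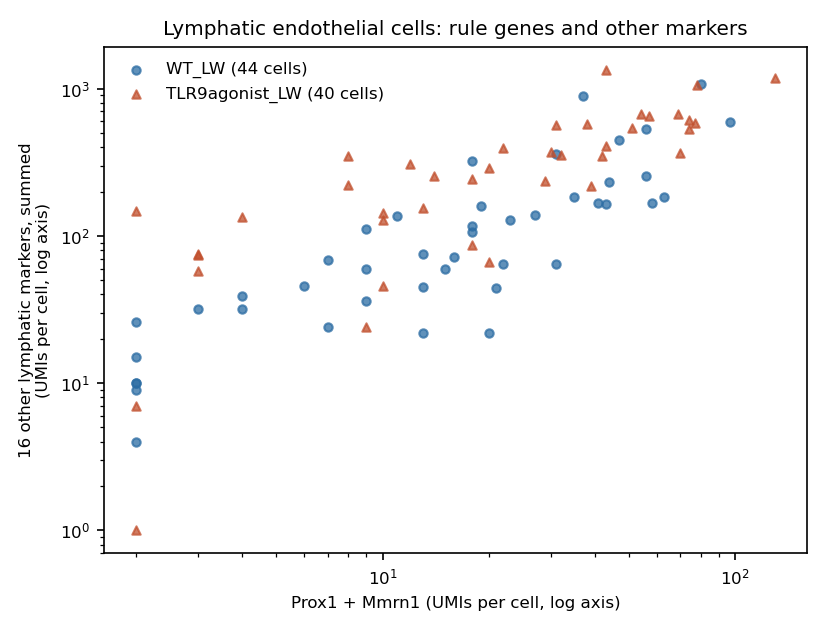
Each point is 1 lymphatic endothelial cell, with its UMIs of the rule genes Prox1 and Mmrn1 on the x axis and its summed UMIs of 16 other lymphatic markers on the y axis, both log axes. Circles are WT_LW (44 cells, 4 to 1081 UMIs of the other markers) and triangles TLR9agonist_LW (40 cells, 1 to 1337 UMIs).

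Few of the chosen cells lay at the threshold of the rule, and more cells lay just below it. Exactly 2 UMIs of Prox1 and Mmrn1 were held by 6 cells of WT_LW, 4 of them with Lyve1, and by 3 of TLR9agonist_LW, 1 of them with Lyve1. Exactly 1 UMI, with the rest of the rule met, was held by 19 and 8 cells, of which 2 and 1 had Lyve1. At least 10 UMIs were held by 29 and 30 cells, and both genes were found in 39 and 36. A further 14 and 15 cells met the rule in all but Pecam1, and 6 and 11 of them had Lyve1. The conditions on Prox1, Mmrn1 and Pecam1 alone were met by 64 and 55 cells, 59 and 52 of them with Lyve1. The condition on Ptprc left 46 and 41 of these, 43 and 38 of them with Lyve1. The lymphatic cells held 53.9% of the Prox1 UMIs of the filtered cells in WT_LW and 48.0% in TLR9agonist_LW, and 65.8% and 60.4% of those of Ccl21a. The source of the UMIs outside them was not tested.

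The lymphatic cells were split about evenly between the libraries. WT_LW gave 52.4% of them (95% Clopper-Pearson interval 41.2 to 63.4%) and 46.4% of all filtered cells. They were 0.385% of the filtered cells of the PBS library (0.280 to 0.516%) and 0.303% of those of the agonist library (0.216 to 0.412%). The log2 ratio, TLR9agonist_LW over WT_LW, was -0.34 (-0.999 to 0.31). Of the endothelial cells, lymphatic and blood together, they made up 6.61% and 7.63%, with a log2 ratio of 0.21 (-0.45 to 0.86). The 2 ratios differed in sign, and each interval held 0. Intervals here and below cover counting error only. Those of summed UMIs leave out the spread between cells, and the spread between mice is not known from 1 library per group.

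Prox1 and Mmrn1 were also met in cells that the rule left out. Ptprc-positive cells were taken here with or without Pecam1. They held at least 2 UMIs of these genes in 0.441% of cases in WT_LW and 0.323% in TLR9agonist_LW (medians 5502.5 and 5548 UMIs). For keratinocytes (at least 5 UMIs of Krt5 and Krt14, none of Pecam1) these were 1.17% and 0.0697% (medians 8466 and 14483 UMIs). For comparison, the median lymphatic cell held 5522 and 9265 UMIs. With every cell thinned to 1500 UMIs, and 1242 and 1251 shallower cells left out, the median over 100 draws was 25 lymphatic cells in WT_LW (range 16 to 32) and 20 in TLR9agonist_LW (range 12 to 29), with a log2 ratio of shares of -0.55 (-1.48 to 0.36). The first draw alone, with 26 and 12 cells, gave -1.34 (-2.47 to -0.31). Without the condition on Pecam1, the thinned medians were 50 and 50 cells.

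Against blood endothelial cells, lymphatic cells had higher levels of all 15 counted lymphatic markers outside the rule, Ccl21a, Lyve1 and Flt4 among them, and lower levels of 14 of 18 blood endothelial markers, Vwf and Sele among them. Values below are log2 ratios of CPM (a gene's UMIs as counts per 1000000 of those summed over a class in 1 library), lymphatic over blood, and a gene is past the fold at a ratio of at least 1 or at most -1 with at least 50 UMIs in both classes together. In WT_LW 608 of 9034 genes were higher past the fold (6.73%) and 1201 lower (13.3%), and in TLR9agonist_LW 947 of 8294 were higher (11.4%) and 1193 lower (14.4%). The median of all genes was 0.02 and 0.11. Prox1 and Mmrn1 chose the lymphatic cells and were required to be at 0 in the blood cells, Pecam1, Ptprc and Rgs5 entered both choices and Cdh5 that of the blood cells, so that their ratios are no finding, and other genes are described without a test.

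**Figure D2:**
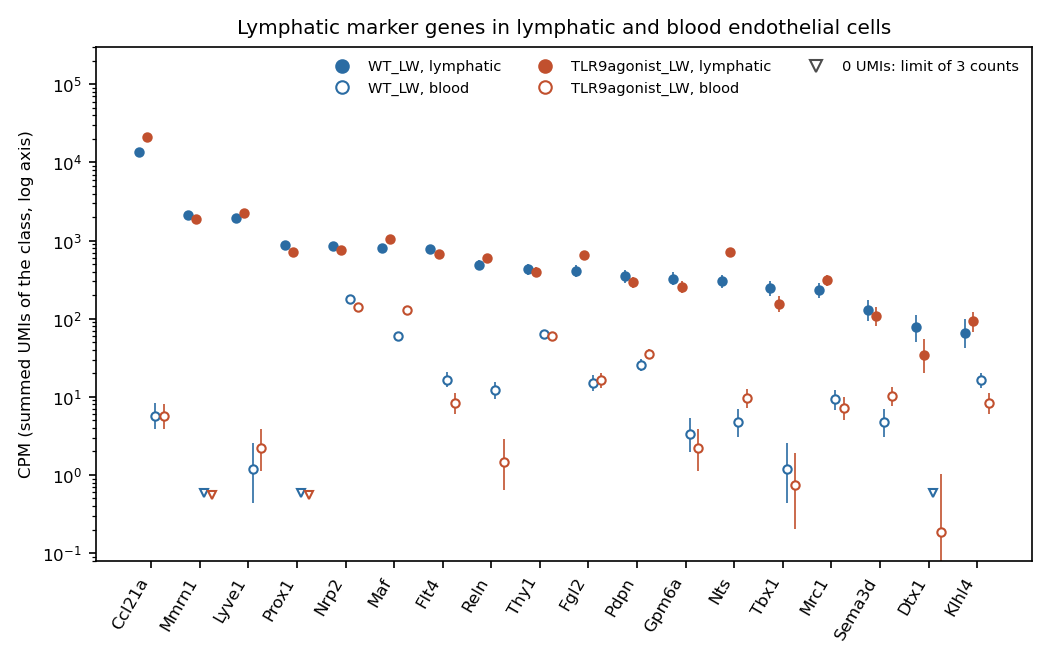
CPM (log axis) of 18 lymphatic marker genes summed over lymphatic cells (filled) and blood endothelial cells (open) of each library, with exact Poisson 95% intervals; triangles stand at 3 counts for genes without a UMI. The 17 with at least 50 UMIs in both classes together (Dtx1 had fewer) lie higher in lymphatic cells, with Ccl21a there at 13658 and 21323 CPM.

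Of the 16 lymphatic markers outside the rule, 15 reached 50 UMIs and all 15 were higher past the fold in both libraries, with medians of 4.77 and 5.43. The chemokine Ccl21a had 4767 UMIs in lymphatic and 29 in blood cells of WT_LW (11.22, interval 10.70 to 11.80), and 10423 and 31 in TLR9agonist_LW (11.87). Its level ran from 0 to 791 UMIs per lymphatic cell in WT_LW (median 48.5) and from 0 to 1215 in TLR9agonist_LW (median 196). The mouse genome holds near-identical copies of Ccl21, and 58 and 178 UMIs of lymphatic cells were counted to the copy Gm21541, so that the share of each copy is uncertain.

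Lyve1 had 672 UMIs in lymphatic and 6 in blood cells of WT_LW (10.67, interval 9.54 to 12.12) and 1088 and 12 in TLR9agonist_LW (9.98). Flt4 had 271 and 84 in WT_LW (5.55, interval 5.19 to 5.92) and 333 and 45 in TLR9agonist_LW (6.36). Reln, which encodes the secreted glycoprotein reelin, had 171 and 62 in WT_LW (5.32) and 293 and 8 in TLR9agonist_LW (8.67). The sialoglycoprotein Pdpn, also made by other skin cells, had 121 and 129 UMIs in WT_LW (3.77) and 143 and 194 in TLR9agonist_LW (3.04), and lymphatic cells held only 1.85% and 0.970% of its UMIs. The lectin receptor Mrc1 (4.64 and 5.43), Fgl2 (4.75 and 5.34) and Thy1 (2.75 and 2.72) were higher as well.

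Ranked by the interval bound nearest to 0 in WT_LW, the 15 highest genes were Mmrn1, Ccl21a, Prox1, Lyve1, Scn3a, Ackr2, Slc45a3, Tbx1, Gpm6a, Pard6g, Nts, Flt4, Plce1, Reln and Tc2n, and the 13 other than the rule genes Mmrn1 and Prox1 were all higher past the fold in TLR9agonist_LW. Scn3a, a sodium channel gene, had 303 UMIs in 37 of 44 lymphatic cells and 2 UMIs in blood cells of WT_LW (11.10, interval 9.24 to 14.15), and 203 UMIs in 36 of 40 cells and none in blood cells of TLR9agonist_LW (at least 9.56 with a floor of 3 counts over the class). Ackr2, which takes up inflammatory CC chemokines, had 55 and 1 UMIs in WT_LW (9.64, interval 7.10 to 14.97) and 70 and 0 in TLR9agonist_LW (at least 8.02). The T-box factor Tbx1 had ratios of 7.68 and 7.71, and Nts, which encodes neurotensin, of 6.00 and 6.24. Nts was not in every cell, as it was found in 19 of 44 and 24 of 40.

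**Figure D3:**
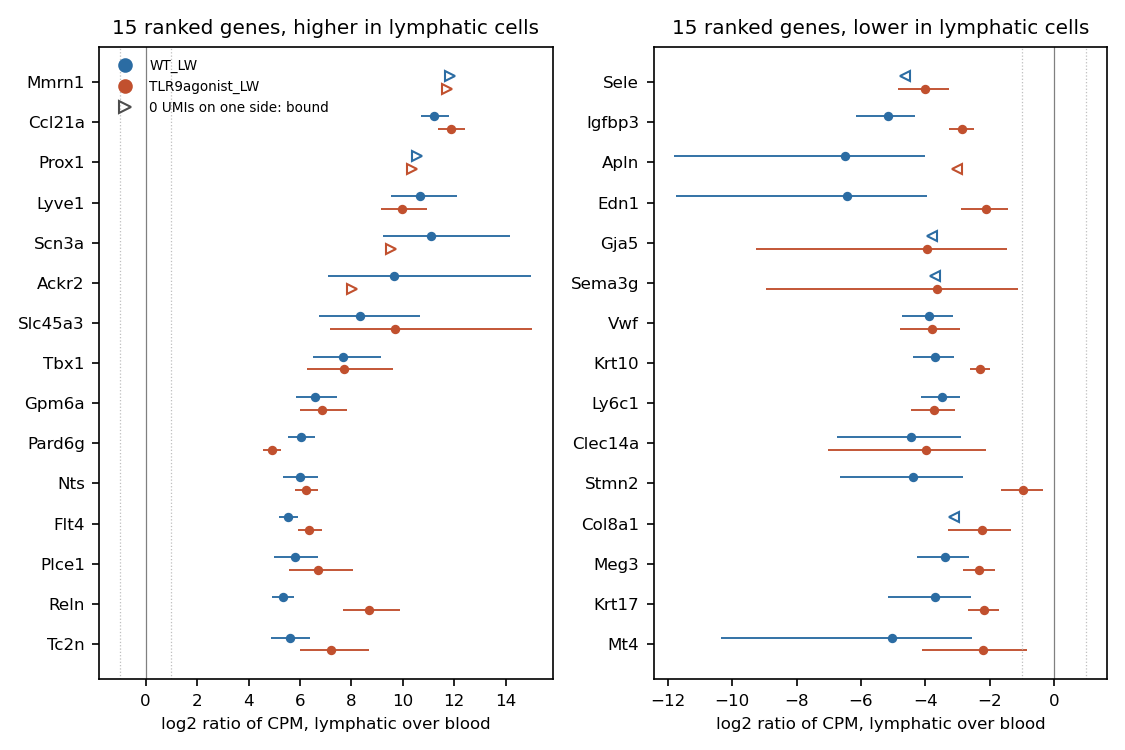
Log2 ratios of CPM, lymphatic over blood endothelial cells, for the 15 highest and 15 lowest ranked genes in each library, with exact 95% intervals; open arrows are bounds for genes without a UMI in a class, and dotted lines mark -1 and 1. Tbx1 lies at 7.68 and 7.71, and Vwf at -3.88 and -3.78.

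The blood endothelial markers were low. Of 18, 14 were lower past the fold in each library (medians -2.18 and -2.74), and none was higher in WT_LW and 1, Kdr, in TLR9agonist_LW. Vwf, the von Willebrand factor gene, had 15 UMIs in lymphatic and 3197 in blood cells of WT_LW (-3.88, interval -4.72 to -3.15) and 11 and 1685 in TLR9agonist_LW (-3.78). With at least 3 UMIs of Prox1 and Mmrn1 required, Vwf stood at -6.55 in WT_LW. Sele, which encodes E-selectin, had 0 and 1075 in WT_LW (at most -4.63 with a floor of 3 counts) and 15 and 2678 in TLR9agonist_LW (-4.00). Flt1, a VEGF receptor of blood endothelium, had ratios of -2.30 and -5.69, but 20 of its 35 UMIs in lymphatic cells of WT_LW were in 1 cell. Kdr, the main VEGF-A receptor, was at -0.04 (-0.30 to 0.21) in WT_LW and 1.05 (0.83 to 1.26) in TLR9agonist_LW, and Plvap, of fenestrated endothelium, at 0.25 and -1.22.

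Some blood markers were spread over many lymphatic cells and others were found in few. In WT_LW Plvap had 203 UMIs in 31 of 44 cells, Kdr 134 in 31 and the water channel gene Aqp1 95 in 25. The 15 Vwf UMIs of WT_LW were in 6 of 44 cells, and the 11 of TLR9agonist_LW in 1 of 40. Outside the marker list, Ly6c1 had 25 UMIs in 6 cells and 19 in 1 cell (-3.49 in WT_LW, and -6.90 with at least 3 UMIs of the rule genes), Sparcl1, a matrix gene, 83 in 11 cells and 66 in 2 cells, and the receptor Cd93 64 in 9 cells and 38 in 4 cells. The top cell of TLR9agonist_LW alone held 34 of 38 UMIs of Cd93 and 31 of 33 of the basement membrane collagen Col15a1. Of the WT_LW cells with exactly 2 UMIs of the rule genes, 3 held 16, 17 and 55 UMIs of Pecam1 and none of Ccl21a or Flt4. In TLR9agonist_LW a cell with exactly 2 held 40 UMIs of Pecam1 and likewise none of Ccl21a or Flt4. Scrublet scores droplets for holding more than 1 cell, and the highest scores were marked up to a preset rate of 0.8% per 1000 cells. Marked were 9.16% of all filtered cells in WT_LW and 10.6% in TLR9agonist_LW. Among them were 0 of 44 and 2 of 40 lymphatic cells, and 57 of 622 and 64 of 484 blood endothelial cells. With the marked cells left out the median of the blood markers was -2.30 in WT_LW, where only the blood class lost cells.

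Among the 15 lowest ranked genes were also genes of other endothelial kinds and of other cell types. Apln, a peptide gene of sprouting endothelium, had 1 UMI in lymphatic and 1305 in blood cells of WT_LW (-6.49, interval -11.80 to -4.01), and Gja5, an arterial connexin, 0 and 607 (at most -3.80). Stmn2 was the 1 gene of the 15 that was not past the fold in TLR9agonist_LW (-4.38 in WT_LW and -0.95). Krt10, Krt17 and Mt4 are keratinocyte genes, with ratios of -3.70, -3.71 and -5.03 in WT_LW. Without the cells above 2 times the median UMIs of their class they stood at -0.37, -1.37 and -0.39, so that the first and the last were no longer past the fold. With at least 4 UMIs of Pecam1 and Cdh5 required of blood cells, Krt17 was not past it either (-0.64).

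Summed RNA of fibroblast and keratinocyte markers was lower in lymphatic than in blood endothelial cells. The fibroblast markers summed to 1828 and 5370 CPM in lymphatic and to 8456 and 11384 CPM in blood cells, and the keratinocyte markers to 536 and 1348 against 2507 and 4841 CPM. Their medians per cell were closer, at 0.204% and 0.211% of UMIs for fibroblast markers in lymphatic and 0.169% and 0.239% in blood cells. Macrophage markers were not lower in WT_LW, with 358 CPM in lymphatic and 262 in blood cells, and stood at 79.8 and 128 CPM in TLR9agonist_LW. No lymphatic cell of WT_LW and 1 of TLR9agonist_LW held over 2% of its UMIs on the markers of another type, while 31 of 622 and 40 of 484 blood cells did so for fibroblast markers alone. With such cells left out of both classes, the medians in WT_LW were 5.36 for the lymphatic markers and -2.36 for the blood markers. All 6 fibroblast and all 6 keratinocyte markers were detected in the lymphatic cells of both libraries. At 0 were the macrophage gene Adgre1 and the Schwann cell gene Ngfr in WT_LW, and in TLR9agonist_LW Cd68, the Schwann cell genes Sox10, Ngfr and Cdh19, the mural genes Myh11 and Notch3 and the T cell genes Cd3e and Lat.

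The transcription factors of the lymphatic lineage other than Prox1 were higher for 5 of 10 genes in WT_LW and 7 of 10 in TLR9agonist_LW, and none was lower past the fold (medians 0.98 and 1.45). Maf stood at 3.74 and 2.99, Nr2f2, or COUP-TFII, which acts with Prox1 in lymphatic fate, at 1.39 and 2.59, and Nfatc1, of valve formation, at 1.58 and 1.89. Sox18, which induces Prox1 in the embryo, was at -0.11 (-0.54 to 0.29) and 0.94 (0.62 to 1.25). Foxc2, the regulator of valves, was under the minimum, with 6 UMIs in 4 of 44 cells and 8 UMIs in 6 of 40.

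Receptors and ligands of vessel growth lay on both sides. Of 16 genes counted, 5 were higher and 6 lower in WT_LW, and 7 and 3 in TLR9agonist_LW. Nrp2, the co-receptor of Flt4, stood at 2.29 and 2.43, and Nrp1, the co-receptor of Kdr, at -2.03 and -2.97. Angpt2, a ligand of the Tie receptors, stood at 3.04 (2.76 to 3.33) and 1.34 (1.06 to 1.62). The ligand Vegfc was carried by blood rather than lymphatic cells, with 1 UMI in lymphatic and 127 in blood cells of WT_LW (-3.13, interval -8.44 to -0.63) and 0 and 89 in TLR9agonist_LW (at most -1.41). Vegfd had no UMI in lymphatic cells, which allows up to 8.60 CPM in WT_LW and 6.14 CPM in TLR9agonist_LW.

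Of 9 valve and collecting vessel genes counted, 4 were higher and 2 lower in WT_LW (median -0.01), and 4 and 0 in TLR9agonist_LW (median 0.26). Itga9, an integrin of valve endothelium, was found in 21 of 44 and 22 of 40 cells (2.16 and 3.78). The cadherin-like receptor Celsr1, which orients valve cells, stood at 2.13 and 1.75, while Cldn11 had no UMI. With Foxc2 in so few cells, capillary and collecting vessels were not told apart.

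**Figure D4:**
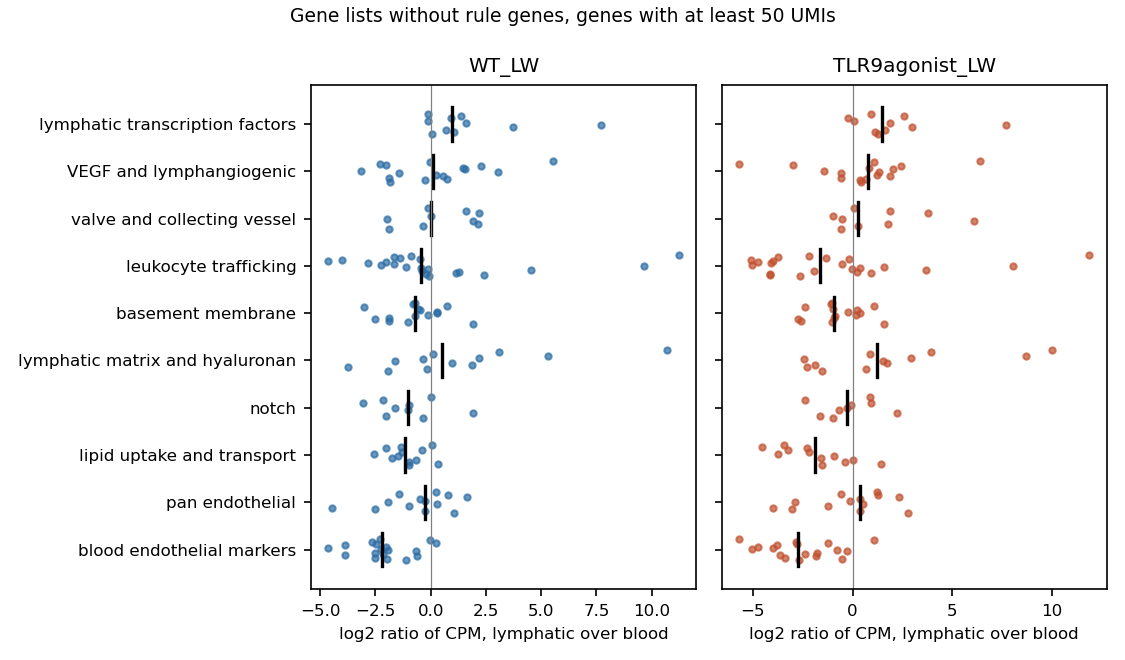
Each point is a gene of the named list, rule genes left out, with at least 50 UMIs in both classes together, at its log2 ratio of CPM of lymphatic over blood endothelial cells, and each black bar is the median of the list. The medians run from -2.18 (blood endothelial markers) to 0.98 (lymphatic transcription factors) in WT_LW and from -2.74 to 1.45 in TLR9agonist_LW.

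Many genes of leukocyte traffic differed between the vessel types. Of 22 counted, 6 were higher and 10 lower in WT_LW (median -0.45) and 4 and 12 in TLR9agonist_LW (median -1.64). The chemokine Cxcl9 was higher in WT_LW (2.43), where 65 of its 80 lymphatic UMIs were in 1 cell, and lower in TLR9agonist_LW (-4.16). Ccl21a, Ackr2 and the guidance cue Sema3a (4.53 and 3.66), which acts in the passage of dendritic cells into lymphatics, were on the lymphatic side. The adhesion molecules of venules were on the other: Selp, or P-selectin, at -2.01 and -4.74, Vcam1 with 3 UMIs against 696 in WT_LW (-4.00, interval -6.28 to -2.45) and 10 against 3848 in TLR9agonist_LW (-5.11), Icam1 at -1.37 and -1.34, and the chemokine receptor Ackr1 at -2.22 and -5.04. In lymphatic cells of WT_LW all 11 UMIs of Ackr1 and 26 of 42 of Selp were in 1 cell each. The cytokine Il7 was under the minimum, with 31 UMIs against 10 and 33 against 8. The sphingosine 1-phosphate exporter Spns2 did not pass the fold (-0.45 and 0.39).

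Basement membrane genes were mostly lower or within the fold. Of 15 genes 5 were lower and 1 higher in WT_LW (median -0.70), and 6 and 2 in TLR9agonist_LW (median -0.94). The laminin chain Lama5 (-3.02 and -2.40), Sparcl1 (-2.53 and -2.74) and Col15a1 (-1.90 and -2.58) were low, Col4a1 was at -0.71 and -1.04, and Fn1, fibronectin, was high (1.90 in WT_LW, interval 1.77 to 2.03). Of the hyaluronan and lymphatic matrix genes other than Mmrn1, 5 of 12 were higher and 3 lower in WT_LW (median 0.52) and 6 and 4 in TLR9agonist_LW (median 1.20), among them the scavenger receptor Stab1 (3.09 and 3.91) and the protease inhibitor Timp3 (1.86 and 1.74).

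Lipid genes were lower for 6 of 12 in WT_LW and 8 of 12 in TLR9agonist_LW, where 1 was higher (medians -1.15 and -1.88), with Scarb1, a lipoprotein receptor, at -2.58 and -3.75 and caveolin Cav1 at -1.77 and -1.57. Of 9 Notch genes counted, 5 were lower and 1 higher in WT_LW (median -1.03), and 2 and 1 in TLR9agonist_LW (median -0.26). The arterial target Hey1 had 0 UMIs against 176 in WT_LW and 4 against 136 in TLR9agonist_LW, and the high gene was Hes1 (1.92 and 2.24). The genes of both kinds of endothelium were mixed: the claudin Cldn5 was higher (1.65 and 2.34), and Clec14a had 3 UMIs against 951 in WT_LW (-4.45, interval -6.73 to -2.90). Of 12 antigen presentation genes none passed the fold in WT_LW (median 0.06) and 2 were lower in TLR9agonist_LW (median -0.71), and of 16 interferon response genes 6 were lower in each library (medians -0.62 and -0.60).

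Between the libraries, 1 of 15 lymphatic markers outside the rule was past the fold. Of 16 immediate early and dissociation genes 3 were higher, 2 of them heat-shock genes. Of 11 antigen presentation genes 5 were lower, among them the 4 MHC class II genes counted. Ratios here are TLR9agonist_LW over WT_LW within lymphatic cells, with blood endothelial cells beside them. Of 2894 genes with at least 50 UMIs in the 2 libraries, 86 were higher past the fold (2.97%) and 203 lower (7.01%), with a median of -0.19. Relative to that median gene, which adds 0.19 to each ratio, 115 were higher and 108 lower. In blood endothelial cells 453 of 10279 were higher (4.41%) and 1677 lower (16.3%), with a median of -0.46. These values describe 2 libraries, not the treatment.

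Of the 15 counted lymphatic markers outside the rule 1 was higher past the fold, Nts (1.25, interval 0.93 to 1.57), and none was lower. Ccl21a stood at 0.64 (0.59 to 0.69), Lyve1 at 0.21, Flt4 at -0.19, Reln at 0.29 and Tbx1 at -0.67. Scn3a, which was not on the list, was at -1.06 (-1.33 to -0.80), past the fold on this scale and not relative to the median gene.

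The 5 highest ranked genes were Serpinb2, S100a9, Hspb1, S100a8 and Adm. Hspb1, a small heat-shock protein gene, had 193 UMIs in 24 of 44 cells of WT_LW and 2360 in 37 of 40 of TLR9agonist_LW (3.13, interval 2.91 to 3.35), and the ratio in blood cells was 2.83. In the rest of the library, outside both endothelial classes, Hspb1 stood at 309 and 1150 CPM. Values of the rest, here and below, are sums over a mix of cells that differed between the libraries. Ptprc-positive cells were 7030 of 11443 filtered cells in WT_LW and 5885 of 13206 in TLR9agonist_LW, and keratinocytes 857 and 2871. The part of this mix in the values of the rest was not tested. Adm, the gene of adrenomedullin, a peptide that lymphatic endothelium responds to, had 2 UMIs in 2 cells and 51 in 18 cells (4.19, interval 2.26 to 7.27), with 1.91 in blood cells. Serpinb2 had 1 UMI in WT_LW and 64 in TLR9agonist_LW (5.51, interval 2.98 to 10.84), but 49 of the 64 were in 1 cell.

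S100a8 and S100a9, the subunits of calprotectin, had 11 and 13 UMIs in WT_LW and 201 and 242 in TLR9agonist_LW (3.71 and 3.73). They were spread over 39 and 40 of the 40 cells of TLR9agonist_LW, with at most 13 and 30 UMIs in a cell. In the rest of the library S100a8 stood at 245 and 2721 CPM and S100a9 at 272 and 2916 CPM, each above the level in the lymphatic cells of the same library (31.5 and 411 CPM for S100a8). The part of RNA from other cells in these values was not tested.

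Of the 4 heat-shock genes of the lists (median 1.28, and 2.07 in blood cells), 2 were higher past the fold in lymphatic cells and 3 in blood cells. Hspa1a and Hspa1b stood at 1.94 and 1.80 in lymphatic cells and at 2.45 and 2.72 in blood cells. They belong to a list of 16 immediate early genes and genes known to respond to tissue dissociation, of which 3 were higher past the fold in lymphatic cells (median 0.45) and 4 in blood cells (median 0.58). The third was Atf3 (1.11, interval 0.82 to 1.40), which stood at 0.99 without its top cell in each library. Hspa1a was also higher in the rest of TLR9agonist_LW (2478 CPM, against 1010 CPM in WT_LW).

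The 5 lowest ranked genes were Cxcl9, Fabp4, Lyz2, Fam101b and H2-Aa. The first pair rested on few cells, as 65 of 80 Cxcl9 UMIs and 167 of 306 Fabp4 UMIs of WT_LW were in 1 cell each. Fam101b had 55 UMIs in 5 cells of WT_LW, 26 of them in 1 cell, and 13 in TLR9agonist_LW (-2.57). With at least 3 UMIs of Prox1 and Mmrn1 required, its ratio was 0.36. The MHC class II genes were spread over more cells: H2-Aa had 82 UMIs in 32 cells of WT_LW and 27 in 21 cells of TLR9agonist_LW (-2.09, interval -2.77 to -1.45), and its chaperone Cd74 150 in 33 cells and 59 in 24 cells (-1.83, interval -2.29 to -1.39). All 4 class II genes counted (Cd74, H2-Aa, H2-Ab1 and H2-Eb1) were lower past the fold, with a median of -1.90 and of -0.72 in blood cells. They are a part of the antigen presentation list, set apart from its other genes. Of the whole list 5 of 11 genes counted were lower (median -0.93, highest -0.02), and 2 of 12 in blood cells (median -0.12).

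Summed over the rest, whose mix of cells differed between the libraries as given above, the class II genes were also lower in TLR9agonist_LW. There Cd74 stood at 4080 CPM in WT_LW and 1995 in TLR9agonist_LW, against 430 and 121 CPM in lymphatic cells, and H2-Aa at 1824 and 884 CPM against 235 and 55.2. The macrophage gene Lyz2 was lower beside them, at -2.66 in lymphatic cells and at 2145 and 742 CPM in the rest of the libraries. The summed macrophage markers stood at 358 CPM in the lymphatic cells of WT_LW and 79.8 in those of TLR9agonist_LW, and their part in the class II values was not tested.

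**Figure D5:**
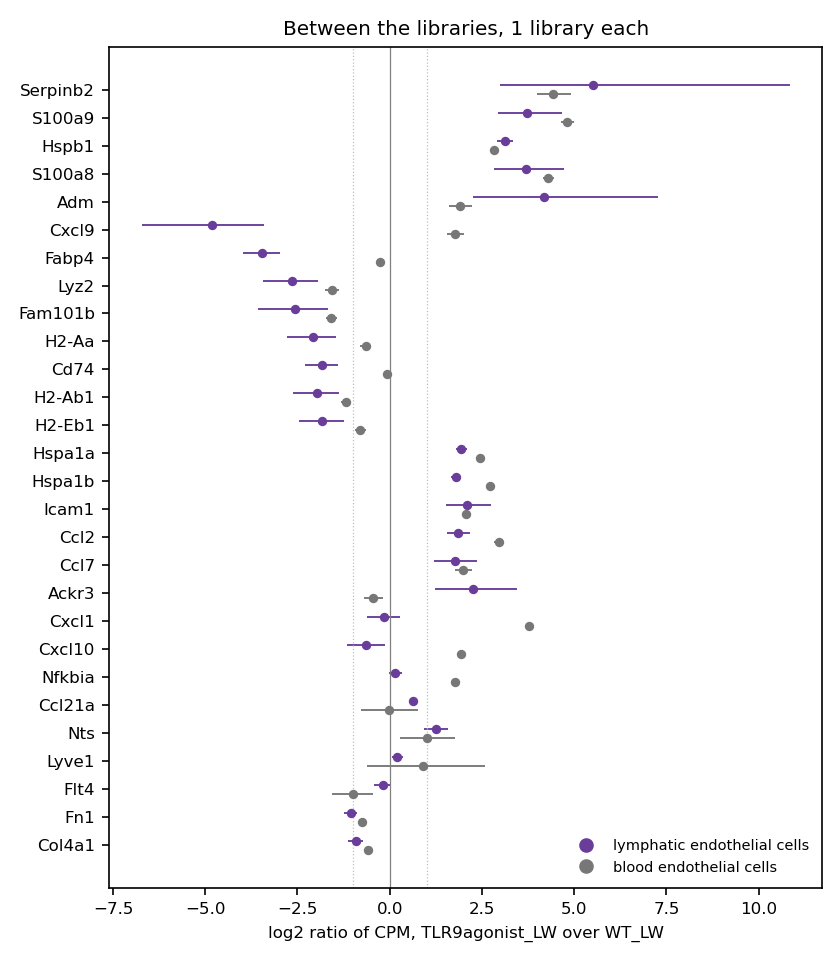
Log2 ratios of CPM, TLR9agonist_LW over WT_LW, with exact 95% intervals, in lymphatic (purple) and blood endothelial cells (grey), for the 10 ranked genes and others described; dotted lines mark -1 and 1. Icam1 lies at 2.11 and 2.08, and Cxcl1 at -0.16 and 3.77.

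Of 15 leukocyte traffic genes counted in lymphatic cells, 4 were higher and 2 lower (median -0.10), and of 22 counted in blood cells 11 were higher and 1 lower (median 0.98). Icam1 had 28 UMIs in lymphatic cells of WT_LW and 169 in those of TLR9agonist_LW (2.11, interval 1.52 to 2.74), with 2.08 in blood cells. The monocyte chemokine Ccl2 had 109 UMIs in 10 cells and 554 in 33 cells (1.86, interval 1.56 to 2.17), with 2.96 in blood cells, and 57 of the 109 UMIs were in 1 cell. The scavenging receptor Ackr3 had 9 and 60 UMIs (2.25, interval 1.23 to 3.45), with -0.44 in blood cells. The neutrophil chemokine Cxcl1 had 76 and 95 UMIs (-0.16, interval -0.61 to 0.29), with 3.77 in blood cells, Cxcl10 stood at -0.64 with 1.94, and the NF-kB inhibitor Nfkbia at 0.16 with 1.77. Of the 69 Cxcl10 UMIs in lymphatic cells of WT_LW 34 were in 1 cell. Without the top cell of each library Cxcl10 stood at -0.09 in lymphatic cells. The difference between the classes was not tested, since each ratio sets 1 library against another. Of 7 interferon genes counted in lymphatic cells, 2 were lower and none higher (median -0.07), among them the guanylate-binding protein gene Gbp2 at -1.84. In WT_LW 22 of 51 Gbp2 UMIs were in 1 cell, and without the top cells Gbp2 stood at -1.31. Tlr9, the receptor of the agonist, had no UMI in the lymphatic cells of either library, with the same limits of 8.60 and 6.14 CPM.

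Of 14 basement membrane genes counted, 3 were lower past the fold and none higher (median -0.75, and -0.60 in blood cells): Col15a1, Fn1 and Col18a1. Col15a1 rested on few cells (58 UMIs in 9 cells and 33 in 3 cells), while Fn1 had 600 UMIs in 41 cells and 403 in 36 cells (-1.06, interval -1.25 to -0.88). Relative to the median gene Fn1 and Col18a1 (-1.03) were not past the fold. The fibroblast markers were higher for 4 of 5 counted (median 1.71), but 592 of 844 Col1a1 UMIs of TLR9agonist_LW were in 1 cell, and without the top cell of each library Col1a1 stood at 0.55 in place of 2.12. The keratinocyte markers were higher for 4 of 6 (median 1.40 in both classes), but 68 of 89 Krt5 UMIs and 179 of 294 Krt14 UMIs of TLR9agonist_LW were in 1 cell each, and without the top cells Krt5 stood at -0.57 and Krt14 at 0.62.

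Dividing cells were few. At least 3 of 10 genes of the G2/M phases, such as Mki67, Top2a and Cdk1, were found in 2 of 44 lymphatic cells of WT_LW and 4 of 40 of TLR9agonist_LW, and in 33 of 622 and 17 of 484 blood endothelial cells. The 4 cells held 218 of the 232 UMIs of these genes in TLR9agonist_LW, and 1 of them, with 63, was the cell with 5.07% of its UMIs on markers of other cell types. The 2 cells of WT_LW held only 3 each, 6 of 20 in that library. Against blood cells the cell cycle list had a median of -1.09 in WT_LW, or -0.49 with genes without a UMI at their bound, and of 1.06 in TLR9agonist_LW.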

How the data were processed

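The authors deposited 1 matrix of raw UMI counts per library, a count for each of 27998 genes and 12800 (WT_LW) or 13751 (TLR9agonist_LW) cells, made with Cell Ranger 4.0.0 per the file headers. The submitters' processing notes name mm9, fastp, Cell Ranger and Seurat. Depth was 99374045 and 132339022 UMIs.

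Cells were filtered and gated as stated in the results. For each class and library the counts were added up, turned into CPM and compared by log2 ratios with exact conditional 95% intervals. No test was made, since each group is 1 library and cells are not replicates. Named were the rule genes, members of 22 gene lists, the 15 highest and lowest genes of lymphatic over blood cells in WT_LW and the 5 of TLR9agonist_LW over WT_LW, ranked by the interval bound nearest to 0, without mitochondrial, ribosomal, Gm and Rik names. Members and lists were chosen with earlier results of these data known. The Ccl21 copy Gm21541 was added after its values were seen. Cd99 was not matched, and some list members are not reported here. Predicted doublets (Scrublet in scanpy 1.11.5) were kept and left out in an alternative.

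The ratio intervals were tried on simulated sums of counts without spread between cells. This trial cannot show how the intervals fare where UMIs gather in few cells. Versions were scipy 1.17.1, numpy 2.4.6, matplotlib 3.10.9, pandas 2.3.3 and Python 3.11.15. Alternatives varied the cell filter, the gates, doublets, cells of high UMI number, the weight of cells, scaling, the minimum of UMIs per gene and depth.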

Additional observations from a re-analysis of the deposited data

How the results depend on the processing

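No paired analysis was possible because each group is 1 library. Of the values that answer a comparison, 110 of the alternatives left the main value within its margin and 15 moved it. For single genes the numbers were 259 and 34, and 1 ratio changed sign. It was that of Fam101b between the libraries, at 0.36 with at least 3 UMIs of Prox1 and Mmrn1. The margin was a fixed factor for counts of genes, an interval across the list's genes for medians, and the counting interval for shares and single genes. Genes with few UMIs had wide intervals, and ratios without a finite value under an alternative were not tallied. Both make a move less likely to be counted. The blood marker median in WT_LW (-2.18) was lower still, at -3.03 with at least 3 UMIs, -2.91 with both rule genes required, -2.55 without cells of high UMI number and -2.72 with equal weight per cell. The 203 genes lower in TLR9agonist_LW became 73 without cells of high UMI number and 108 relative to the median gene, and the basement membrane median between the libraries moved from -0.75 to -0.37 without cells of high UMI number. With a minimum of 20 UMIs per gene, 951 genes were higher in lymphatic than in blood cells of WT_LW, and 201 were higher and 675 lower between the libraries. With a minimum of 100, these were 341, 50 and 55, and 781 genes were lower in lymphatic cells. These minimums change how many genes are counted, and the cause of the other shifts was not tested. In the first thinning to 1500 UMIs the log2 ratio of shares was -1.34 (interval -2.47 to -0.31, which leaves out 0), with 26 and 12 lymphatic cells. The median over 100 draws, -0.55 (-1.48 to 0.36), was added after that draw had been seen to lie at the low end for TLR9agonist_LW. The alternatives on cells with markers of another type, on single top cells and on the Pecam1 and Ptprc conditions were also chosen after seeing the data. The share of endothelial cells was at -0.09 in place of 0.21 under the stricter cell filter. With 44 and 40 cells, genes with few UMIs rest on single cells.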
